A study of Homo sapiens with 4 samples.

Results

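The respiratory chain genes of AC16 cells were followed over 4 poly(A) RNA libraries, 1 of untreated cells (0 min) and 3 of cells kept for 10, 30 and 360 min in 10 nM doxorubicin, an anthracycline. The set held every protein-coding gene of GENCODE release 29 whose symbol begins with NDUFA, NDUFB, NDUFC, NDUFS, NDUFV, SDHA to SDHD, UQCR, COX4 to COX8, ATP5, MT-ND, MT-CO, MT-CY or MT-ATP, without the NDUFAF and SDHAF assembly factors. These were 104 of 19951 protein-coding genes, 91 in the nucleus and 13 in mitochondrial DNA (mtDNA). Of the nuclear genes, 2 (NDUFC2-KCTD14 and ATP5MF-PTCD1) are read-through genes. AC16 is a human line made by fusing adult ventricular cells with transformed fibroblasts. For the 10, 30 and 360 min libraries, the FBS-containing medium was replaced, after 1 PBS rinse, by DMEM without serum that held the drug, per the labels' protocols. Whether the 0 min cells also had their medium changed is not stated there, so the drug, the change of medium and the loss of serum cannot be told apart. All cells were detached with trypsin before lysis in Trizol, and RNA was taken on poly(dT) beads. Each time has 1 library, so there is no replicate error and no test, and each ratio is given with a 95% interval that covers counting error alone. The 3 comparisons share the 0 min library.

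The respiratory chain passes electrons from NADH and succinate to oxygen. Complex I (NADH dehydrogenase) and complex II (succinate dehydrogenase) feed coenzyme Q, complex III passes electrons to cytochrome c, and complex IV reduces oxygen. Complexes I, III and IV pump protons, and complex V, the ATP synthase, lets them back to make ATP. Complex II is built from nuclear genes alone, whereas the other complexes join nuclear and mtDNA subunits. Heart muscle relies on this chain for most of its ATP, and doxorubicin is known to harm the heart and its mitochondria.

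The nuclear genes lie on many chromosomes, and their promoters are known for binding sites of NRF1, of the ETS factor GABP and of YY1. In the RefSeq promoter table (GRCh38.p14, 300-base windows that end 50 bases after the start), 72 of the 91 nuclear members had 1 or more windows, 86 in all. The letters GCGCANGCGC, a core NRF1 site, stood on either strand in 17 of these windows (19.8%), against 7.39% of 22199 windows of protein-coding genes. The ETS core CCGGAAG stood in 22 (25.6%), against 12.8%, and the YY1 core AAGATGG in 19 (22.1%), against 6.04%. The ETS letters end with the 3 letters that begin the YY1 core, so 1 stretch can hold both. Such joined letters stood in 0 member windows and in 8 windows of protein-coding genes. A match is a description and not a bound site. For each complex, the window below belongs to the nuclear member with the highest mean level, in CPM (counts scaled to an equal library total), that has a match between 120 bases before and 30 bases after the start. Matches are in capitals, and each line reads 5′ to 3′ on the gene's strand.
NDUFA11 (complex I, chr19:5903761-5903910, minus strand): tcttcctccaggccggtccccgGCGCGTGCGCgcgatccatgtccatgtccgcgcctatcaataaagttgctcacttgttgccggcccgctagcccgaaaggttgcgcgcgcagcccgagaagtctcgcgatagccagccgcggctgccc
SDHA (complex II, chr5:218200-218349, plus strand): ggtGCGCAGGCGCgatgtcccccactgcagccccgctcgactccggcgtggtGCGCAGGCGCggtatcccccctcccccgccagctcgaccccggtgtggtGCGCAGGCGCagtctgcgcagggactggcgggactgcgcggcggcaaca
UQCRC1 (complex III, chr3:48609617-48609766, minus strand): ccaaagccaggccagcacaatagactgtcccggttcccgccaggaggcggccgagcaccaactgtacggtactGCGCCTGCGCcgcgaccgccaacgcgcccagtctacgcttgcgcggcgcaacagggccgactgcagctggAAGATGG
COX8A (complex IV, chr11:63974500-63974649, plus strand): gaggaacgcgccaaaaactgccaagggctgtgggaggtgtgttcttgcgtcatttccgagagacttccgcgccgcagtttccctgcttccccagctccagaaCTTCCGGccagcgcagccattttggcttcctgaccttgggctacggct
ATP5F1A (complex V, chr18:46098267-46098416, minus strand): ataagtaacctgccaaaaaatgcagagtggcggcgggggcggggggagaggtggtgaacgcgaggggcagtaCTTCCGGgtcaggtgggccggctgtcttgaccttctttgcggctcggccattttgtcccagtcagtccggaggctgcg

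The libraries held 55156612 to 56875881 estimated counts. The 10 min library stood apart over all genes: between 10 and 0 min the middle 50% of protein-coding genes ran from -0.42 to 0.37 on the log2 scale, against -0.20 to 0.20 at 30 min and -0.16 to 0.17 at 360 min. The label calls the cells cardiomyocytes, but of 12 cardiomyocyte markers 4 (MYL2, MYL7, RYR2 and NKX2-5) reached 1 CPM in a library, TNNT2, MYH6 and MYH7 stayed under 1 CPM, and PLN and ACTC1 were at 0. The 11 fibroblast and matrix markers summed to 10570, 13870, 9112 and 8965 CPM at 0, 10, 30 and 360 min, highest at 10 min, while the endothelial, immune and epithelial lists stayed at or under 57.6 CPM. COL1A1, COL1A2, FN1, VIM, DDR2 and PDGFRA were each highest at 10 min, whereas COL3A1, THY1 and POSTN stayed under 1 CPM and LUM and DCN were at 0. Their part in the results at 10 min was not tested.

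Levels are CPM of the annotated transcripts of a gene, divided by the library's total over all transcripts, and a gene was compared where it had at least 5 CPM in 1 of the 2 libraries. This left 93 members at 10 min and 92 at 30 and at 360 min, of which 80, 79 and 79 were nuclear. Of the members left out, 11 were under 5 CPM in every library. NDUFC2-KCTD14 had 2.13, 2.03, 1.07 and 0.943 CPM and ATP5MF-PTCD1 had 0.949, 0.0899, 1.34 and 2.19 CPM. COX7B2 had 0.703, 0.863, 0.579 and 0.707 CPM, and ATP5MGL had 0.0724 CPM at 30 min and 0 elsewhere. The others are given with the isoforms, and NDUFA7, the last, was compared at 10 min alone. A member was counted as higher or lower at 2-fold where its counting interval also excluded 1. A milder rule, with the same interval, asked for at least 25% above 0 min, or at most 0.8 of 0 min. In bulk RNA, fewer cells of a type and less RNA per cell cannot be told apart.

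The 91 nuclear genes together stood lower at 10 min than in the other 3 libraries. They summed to 6911, 6001, 6979 and 6633 CPM at 0, 10, 30 and 360 min. The ratio to 0 min was 0.868 (95% interval 0.860 to 0.876) at 10 min, 1.01 (1.001 to 1.02) at 30 min and 0.960 (0.951 to 0.968) at 360 min. At 30 min the direction turned, to 0.991, over the members whose most counted transcript was the same as at 0 min. At 10 min 70 of 80 compared nuclear genes were below their 0 min level (87.5%), with a median log2 ratio of -0.23. Over all 11150 protein-coding genes compared, 53.3% were below and the median was -0.05. Among the 4285 genes with a mean level between 31.9 and 132 CPM, the range that holds the middle of the nuclear members, 60.9% were below and the median was -0.14. The 10 min library was the lowest of the 4 for 54 of 80 nuclear members (67.5%) and for 39.9% of all genes. At 30 and 360 min 45 and 46 of 79 nuclear members were below, with medians of -0.02 and -0.03, against -0.01 and 0.01 over all genes.

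The shift at 10 min was broad and small. At 2-fold, 2 members (NDUFA3 and NDUFA7) were higher and 0 lower at 10 min, against 7.43% and 6.91% of all genes. At 30 min 0 were higher and 0 lower, against 3.48% and 3.19%, and at 360 min 0 were higher and 1 (NDUFS6) lower, against 3.20% and 3.28%. Assembled models were then added where a locus matched 1 member, a choice made after seeing the data. With them, 1 member was 2-fold higher at 10 min and 0 were 2-fold lower at 360 min. That 1 member was NDUFA7, whose locus is shared, so it kept its annotated counts. The whole shared locus had a ratio of 0.972 at 10 min. Under the milder rule, 4 members were higher and 29 lower at 10 min, against 26.5% and 30.4% of all genes. The lower members included 25 of 80 nuclear genes, a share near that of all genes, so the count of lower members does not set them apart. The higher members included 3 of 80 nuclear genes (3.75%), a share below the 26.5% of all genes. At 30 min 5 were higher and 7 lower, against 15.6% and 15.2%. At 360 min 1 was higher and 7 lower, against 12.8% and 12.9%. With 92 members compared, the counts at 30 and 360 min lay below the share of all genes in each direction.

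**Figure D1:**
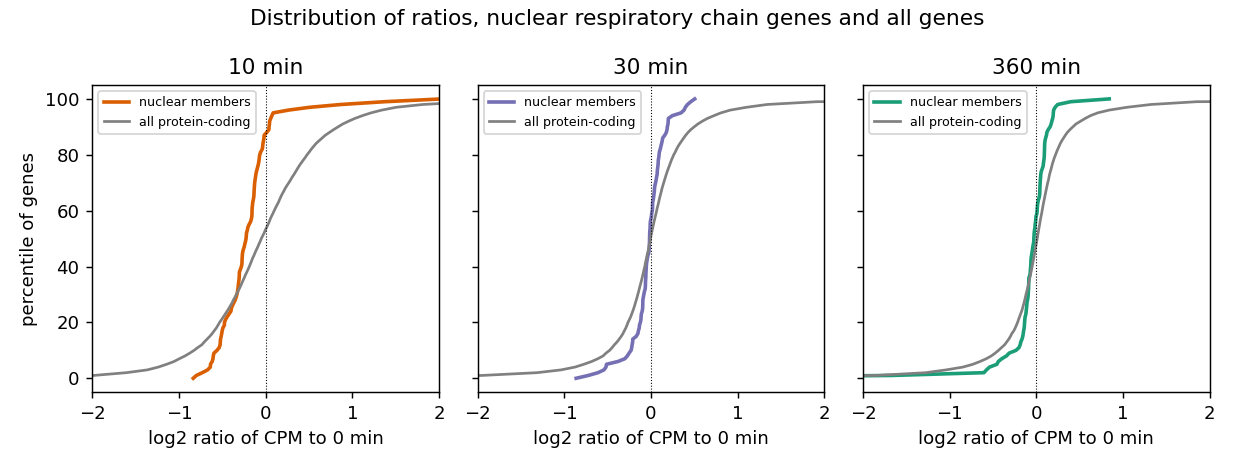
Percentiles (y axis) of the log2 ratio of CPM to 0 min (x axis) for compared nuclear respiratory chain genes (colour) and all compared protein-coding genes (grey), at 10, 30 and 360 min; the x axes run from -2 to 2, and values beyond, such as NDUFS6 at 360 min and NDUFA7 at 10 min, are not drawn. At 10 min the median of the nuclear genes is -0.23 and that of all genes -0.05, and the curve of the nuclear genes is steeper.

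Of complex I, which takes electrons from NADH, 38 nuclear members summed to 2171, 1845, 2164 and 2081 CPM at 0, 10, 30 and 360 min, a ratio of 0.850 (0.836 to 0.864) at 10 min. At 10 min 30 of 37 compared members were below 0 min, and under the milder rule 2 were higher and 15 lower (5.41% and 40.5%), against 26.5% and 30.4% of all genes. NDUFA6, an accessory subunit, had 78.9, 50.7, 73.1 and 58.0 CPM, with ratios of 0.643 (0.584 to 0.707) at 10 min and 0.735 (0.671 to 0.806) at 360 min. It was thus low in the 10 and 360 min libraries, from annotated transcripts alone, as its locus could not be matched. NDUFA12, another accessory subunit, had 42.3, 27.7, 55.9 and 28.2 CPM, low at 10 and 360 min and high at 30 min, where its ratio was 1.32 (1.19 to 1.47). NDUFV1 and NDUFV2 form the part of the enzyme that takes up NADH. NDUFV1 had 77.8, 54.9, 53.0 and 83.7 CPM, low at 10 and 30 min, and NDUFV2 had 60.3, 56.3, 78.9 and 69.0 CPM, highest at 30 min with a ratio of 1.31 (1.19 to 1.43). Of the other core subunits that carry iron-sulphur clusters, NDUFS1 had 124, 99.0, 120 and 128 CPM and NDUFS7 87.5, 74.7, 79.7 and 78.7 CPM. NDUFS8 had 47.5, 38.2, 38.0 and 43.3 CPM, and each of these was highest at 0 or 360 min. With assembled models the NDUFS8 locus had ratios of 0.922, 0.913 and 0.860 at 10, 30 and 360 min, lowest at 360 min. The 11 NDUFB genes, accessory subunits mostly of the membrane arm, were all below 0 min at 10 min, from 0.644 for NDUFB2 to 0.983 for NDUFB5. NDUFB9 was low at each later time, with 56.5, 37.2, 39.6 and 41.8 CPM. The loci of NDUFB2 and NDUFB9 could not be matched, so assembled models could not be added to their values. NDUFS4, an accessory subunit, had its highest level at 360 min, at 38.5 CPM against 31.9 CPM at 0 min. Some abundant members were not lower at 10 min. The NDUFA10 locus had 94.98, 99.8, 93.9 and 94.3 CPM, a ratio of 1.05 (0.974 to 1.13) at 10 min. NDUFC2 held 84.6% of the annotated counts of a locus shared with NDUFC2-KCTD14 and KCTD14. With assembled models that locus had 147, 149, 145 and 143 CPM, a ratio of 1.02 (0.958 to 1.08) at 10 min.

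The largest ratios in complex I were tied to which transcript models held the counts. NDUFS6, an accessory subunit with a zinc site (ENSG00000145494, chr5:1801400-1816605 in GRCh38, plus strand), had 59.8, 37.1, 61.8 and 1.43 CPM, so its annotated transcripts nearly vanished at 360 min, with a ratio of 0.0239 (0.0147 to 0.0377). Models made by the assembly at the same locus held 1, 14, 4 and 3036 counts, and the whole locus had a ratio of 0.944 at 360 min. NDUFA3 (ENSG00000170906, chr19:54102728-54109257, plus strand) had 9.97, 22.9, 6.20 and 17.9 CPM from annotated transcripts, a ratio of 2.30 (1.87 to 2.81) at 10 min, while the ratio of its whole locus was 1.15 at 10 min, 1.16 at 30 min and 0.923 at 360 min. NDUFA7 (ENSG00000267855, chr19:8308768-8321396, minus strand) had 3.52, 14.4, 3.64 and 4.90 CPM, a ratio of 4.10 (2.99 to 5.70) at 10 min. Of its counts at 10 min, 82.3% were on 1 model classed as a target of nonsense-mediated decay, against 22% at 0 min. Its locus is shared with neighbouring genes and had a ratio of 0.972 at 10 min.

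**Figure D2:**
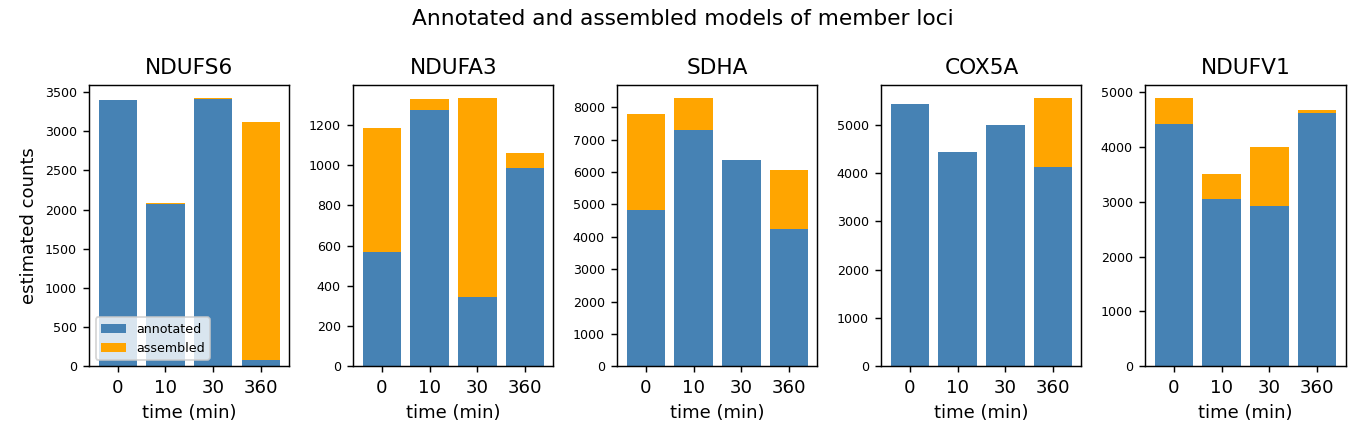
Estimated counts (y axis) by time in min (x axis) at the 5 loci where the share held by assembled models differed by 20 percentage points or more between libraries, split into annotated transcripts (blue) and models made by the assembly (orange); the y axes differ. At NDUFS6 the assembled models hold 3036 counts at 360 min and 1 at 0 min.

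That rule, added after values were seen, took 5 of 73 loci that matched 1 member and had at least 5 CPM: NDUFS6, NDUFA3, SDHA, COX5A and NDUFV1. COX5A, a nuclear subunit of complex IV, had 95.6, 79.7, 90.6 and 74.8 CPM, and with its assembled models the ratio at 360 min was 1.05 in place of 0.782. NDUFV1 at 30 min had a ratio of 0.681 from annotated transcripts and 0.841 for its locus. Over all compared members the most counted annotated transcript differed from that at 0 min for 6 members at 10 min, 4 at 30 min and 7 at 360 min.

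Complex II, which oxidises succinate, had 4 members and summed to 344, 359, 375 and 308 CPM. SDHA, the flavoprotein that holds the active site, had 84.7, 131, 115 and 77.1 CPM, high at 10 and 30 min, with ratios of 1.55 (1.44 to 1.67) and 1.36 (1.26 to 1.47). With assembled models its locus had ratios of 1.09, 0.842 and 0.801 at 10, 30 and 360 min, so the order of the libraries depends on the models counted. SDHA also has pseudogene copies, and all 160 pseudogenes named after a nuclear member summed to 29.4, 29.8, 25.8 and 27.6 CPM. SDHB, the iron-sulphur subunit, had 68.6, 57.8, 76.8 and 77.7 CPM, lowest at 10 min. SDHC and SDHD anchor the enzyme in the membrane. SDHC had 96.1, 87.8, 91.9 and 62.2 CPM, low at 360 min with a ratio of 0.647 (0.593 to 0.705). The SDHC locus held no assembled models, so its counts are these same counts. SDHD had 94.98, 82.5, 90.9 and 90.8 CPM, within 0.869 to 0.957 of 0 min in the later libraries.

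Complex III, which passes electrons to cytochrome c, had the narrowest spread among the nuclear members that the symbol rule takes. Its 9 nuclear members summed to 1085, 991, 1073 and 1042 CPM, and all 8 compared were below 0 min at 10 min, by log2 ratios of -0.30 to -0.01. None of them passed the milder rule at any time. UQCRC1, a core subunit and the most abundant of them in CPM, had 283, 280, 290 and 267 CPM, close to level. UQCRFS1, the Rieske iron-sulphur protein, had 138, 114, 133 and 143 CPM, and UQCRQ, a small subunit, had 105, 85.4, 98.6 and 104 CPM. Both were lowest at 10 min, with ratios of 0.828 (0.775 to 0.886) and 0.811 (0.751 to 0.876). UQCRC2, the other core subunit, had 145, 136, 153 and 136 CPM. The small subunits UQCR10 and UQCR11 had 61.2, 50.7, 65.3 and 59.6 CPM and 110, 107, 107 and 103 CPM. CYC1, a nuclear complex III subunit that the symbol rule leaves out, had a ratio of 0.586 (0.549 to 0.626) at 10 min. The mtDNA subunit MT-CYB had a ratio of 0.649 at 10 min. Both were lower under the milder rule.

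Complex IV, which reduces oxygen, had 19 nuclear members here, counting NDUFA4, and summed to 1277, 1111, 1213 and 1212 CPM. At 10 min 10 of 12 compared members were below 0 min. COX7A2L, a factor in supercomplex assembly (ENSG00000115944, chr2:42333546-42425088, minus strand), had 82.8, 46.5, 45.6 and 76.8 CPM, with ratios of 0.561 (0.509 to 0.618) at 10 min and 0.550 (0.499 to 0.607) at 30 min. The 10 and 30 min libraries were thus lower than the 0 and 360 min libraries. Its locus held no assembled models, so the locus counts are these same counts and give no separate check. NDUFA4, a subunit of complex IV long listed with complex I, had 145, 110, 122 and 134 CPM. COX7C, a small subunit, had 91.1, 93.6, 115 and 90.7 CPM, highest at 30 min. COX5B, the zinc-binding subunit, had 114, 117, 102 and 108 CPM. COX6B1 had 99.3, 90.5, 95.3 and 87.1 CPM, COX7A2 66.3, 63.8, 66.5 and 70.7 CPM, and COX7B 86.9, 72.2, 81.2 and 87.6 CPM, all small nuclear subunits within a narrow range.

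All 19 compared nuclear members of complex V, the ATP synthase, were below 0 min at 10 min. Its 21 nuclear members summed to 2034, 1695, 2155 and 1991 CPM, with ratios of 0.833 (0.819 to 0.848) at 10 min, 1.06 (1.04 to 1.08) at 30 min and 0.979 (0.963 to 0.995) at 360 min. The proton-carrying c ring is made from ATP5MC1, ATP5MC2 and ATP5MC3, which encode the same mature protein. They summed to 192, 141, 174 and 202 CPM, a ratio of 0.735 (0.694 to 0.780) at 10 min. ATP5MC1 (ENSG00000159199, chr17:48892765-48895871, plus strand) had 43.6, 25.2, 43.4 and 46.5 CPM, low in the 10 min library alone, with a ratio of 0.579 (0.506 to 0.661). The 5 genes of the catalytic F1 head summed to a ratio of 0.901 (0.880 to 0.923) at 10 min and 1.17 (1.15 to 1.20) at 30 min. At 30 min 3 of the 5 were below 0 min and their median log2 ratio was -0.01, so ATP5F1A and ATP5F1B alone carried the higher sum. Over complex V, 13 of 19 compared members were below 0 min at 30 min, beside a summed ratio of 1.06. ATP5F1A, its alpha subunit, had 272, 245, 387 and 251 CPM, high at 30 min, and ATP5F1B, the catalytic beta subunit, had 452, 406, 519 and 457 CPM. Of the ATP5F1A counts, a 1793-base model held 68.2% at 30 min and 8.91% at 0 min. A model classed as a target of nonsense-mediated decay held 2.12% and 67.4%. ATP5F1A was thus not among the members with the same most counted transcript at 30 min. The ATP5F1A locus with assembled models had a ratio of 1.41 at 30 min. Of the stalk, ATP5PF had 79.3, 53.9, 75.7 and 68.3 CPM, lowest at 10 min, and ATP5PO had 116, 82.1, 80.8 and 93.1 CPM, below 0 min at each later time. The ATP5PO locus could not be matched, so assembled models could not be added. ATP5PB, another stalk subunit, had 138, 101, 145 and 146 CPM, low at 10 min alone. In the F1 head, ATP5F1C had 146, 133, 144 and 150 CPM and ATP5F1D 45.5, 41.5, 39.0 and 41.4 CPM. ATP5S, also called factor B, had 11.6, 8.04, 12.4 and 13.3 CPM, the lowest level in CPM of the compared members of complex V. ATP5IF1, which inhibits the reverse reaction, had 66.0, 54.1, 67.9 and 65.4 CPM.

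**Figure D3:**
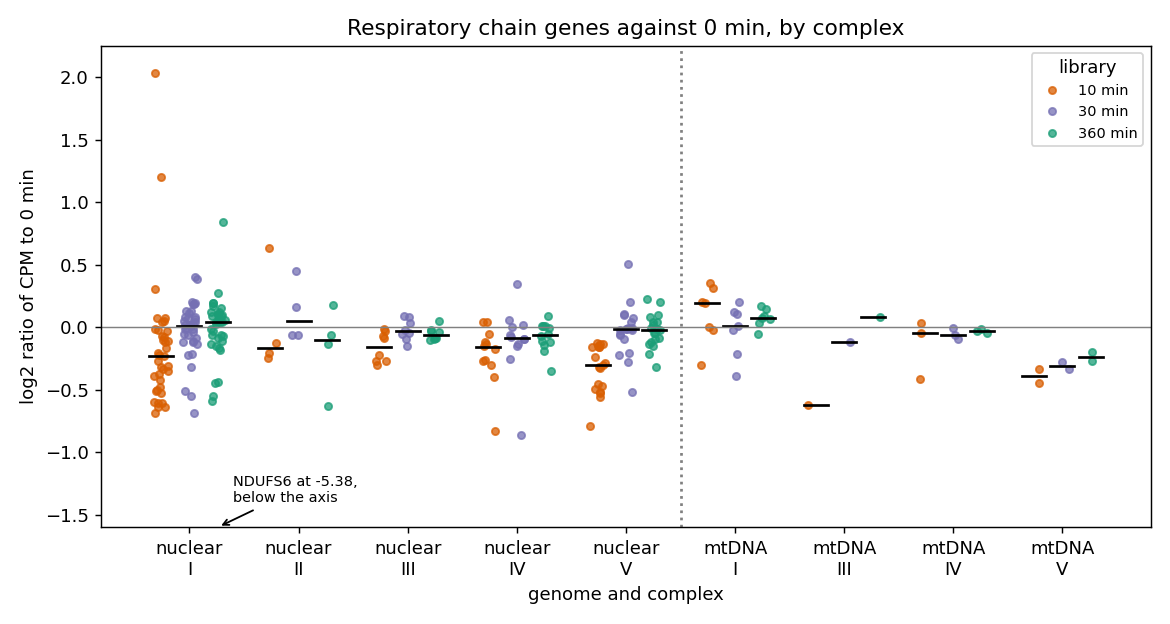
Log2 ratio of CPM to 0 min (y axis) of each compared member (points) by genome and complex (x axis), at 10, 30 and 360 min (colours), with the median as a black bar. All 19 nuclear complex V points at 10 min lie below 0, while NDUFS6 at 360 min lies below the axis at -5.38.

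The 13 mtDNA genes held 3.57%, 3.50%, 3.44% and 3.56% of all counts at 0, 10, 30 and 360 min, or 35662, 35010, 34382 and 35612 CPM. The ratios of their sum to 0 min were 0.982 (0.978 to 0.986), 0.964 (0.960 to 0.968) and 0.999 (0.995 to 1.003). These lay nearer to 1 than those of the nuclear sum at 10 and 360 min and farther from 1 at 30 min. mtDNA is copied into long RNAs from each strand, which are cut into single messages, and MT-ND6 alone of these genes lies on the other strand.

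Within that sum, complexes and single mtDNA genes differed at 10 min. The 7 mtDNA genes of complex I summed to a ratio of 1.12 (1.116 to 1.132), with 5 above 0 min and 2 below. The 3 of complex IV summed to 0.951 (0.947 to 0.956). MT-CYB, cytochrome b of complex III (chrM:14747-15887, plus strand), had 1532, 994, 1410 and 1618 CPM, low at 10 min alone, with a ratio of 0.649 (0.635 to 0.663). MT-CO3 of complex IV had 3217, 2409, 3010 and 3185 CPM, also lowest at 10 min, whereas MT-CO1 had 14213, 13764, 13582 and 13914 CPM and MT-CO2 5508, 5648, 5478 and 5333 CPM. In complex I, MT-ND4 had 4112, 5102, 4142 and 4337 CPM, MT-ND4L 576, 662, 567 and 602 CPM, and MT-ND5 2094, 2395, 1804 and 2141 CPM. These neighbours were highest at 10 min, with ratios of 1.24, 1.15 and 1.14. MT-ND6 had 532, 679, 407 and 512 CPM, a ratio of 1.27 (1.24 to 1.31) at 10 min and 0.764 (0.738 to 0.791) at 30 min, and its locus with assembled models had 1.10 at 10 min. MT-ND2 had 1345, 1088, 1465 and 1430 CPM, lowest at 10 min, while MT-ND1 had 1051, 1035, 1211 and 1163 CPM and MT-ND3 417, 418, 449 and 470 CPM.

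MT-ATP8 and MT-ATP6, the mtDNA subunits of complex V, are read from 1 message and share 46 bases, shown because reads there cannot be given to either gene. The capitals mark the start of MT-ATP6 and the end of MT-ATP8, at chrM:8527-8572 on the plus strand, from the GENCODE 29 transcripts.
MT-ATP8 and MT-ATP6 overlap: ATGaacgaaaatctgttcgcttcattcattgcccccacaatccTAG
The shared bases are 22.2% of MT-ATP8 and 6.75% of MT-ATP6. MT-ATP8 had 466, 343, 384 and 386 CPM and MT-ATP6 had 599, 475, 474 and 522 CPM, both highest at 0 min. Summed, their ratios were 0.768 (0.749 to 0.787), 0.805 (0.786 to 0.824) and 0.853 (0.833 to 0.873) at 10, 30 and 360 min.

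Copies of mtDNA in the nuclear genome limit these values. MTND2P28, MTCO1P12 and MTATP6P1 on chromosome 1 are 98.4%, 98.6% and 98.5% identical to MT-ND2, MT-CO1 and MT-ATP6, so reads can be shared between them. Their ratios at 10 min were 0.681, 0.923 and 0.734, next to 0.809, 0.968 and 0.793 for the mtDNA genes. All 393 such copies summed to 1034, 825, 886 and 929 CPM. The large ribosomal RNA MT-RNR2, which is not a member, had 3792, 5993, 3092 and 3690 CPM, highest at 10 min. Its part in the mtDNA values was not tested.

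**Figure D4:**
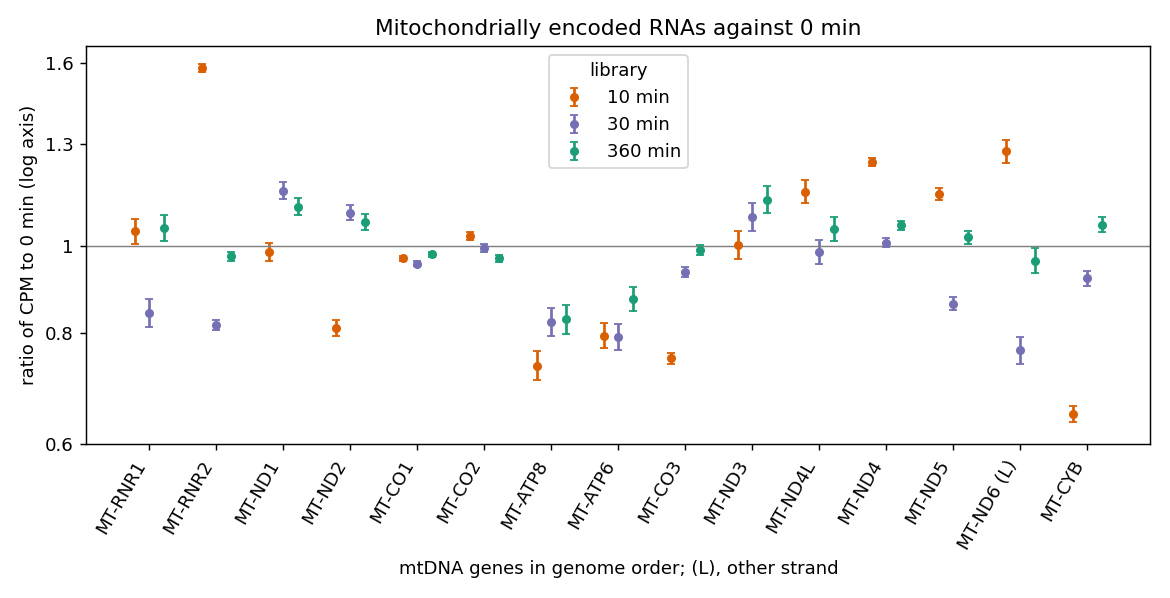
Ratio of CPM to 0 min on a log axis (y axis) for the 2 ribosomal RNAs and 13 protein genes of mtDNA in genome order (x axis), at 10, 30 and 360 min (colours), with 95% counting intervals. MT-CYB is lowest at 10 min, at 0.649, and MT-ND4, MT-ND4L, MT-ND5 and MT-ND6 lie above 1.

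Levels between genes were compared per kb of transcript. In each paralogous pair of complex IV, the form known from heart and skeletal muscle or another special tissue was low or at 0. COX4I1 had 135, 122, 133 and 128 CPM per kb, while COX4I2, known from lung, was at 0 in all 4 libraries, which allows up to 0.211 to 0.218 CPM per library before division by length. COX6A1 had 254, 234, 257 and 244 CPM per kb, while the muscle form COX6A2 had 0.531 at 10 min and 0 elsewhere. COX7A2 had 87.7, 84.5, 89.8 and 93.1 CPM per kb, while the muscle form COX7A1 had 0, 0.470, 0.166 and 0. COX8A had 341, 277, 355 and 343 CPM per kb, while COX8C had 0.101 at 10 min and 0 elsewhere. COX6B1 had 150, 137, 144 and 132 CPM per kb, and COX6B2, known from testis, had 0.957, 3.22, 1.11 and 0.760, highest at 10 min. NDUFA4 had 74.9, 60.3, 58.9 and 67.4 CPM per kb, against 2.35, 3.02, 3.04 and 3.25 for NDUFA4L2, known as a hypoxia gene.

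Of the c ring genes, ATP5MC1 had 67.2, 40.1, 69.8 and 73.5 CPM per kb, ATP5MC2 60.9, 65.7, 58.9 and 74.8, and ATP5MC3 23.8, 17.0, 25.3 and 29.3. ATP5MC2 stood above ATP5MC1 at 10 and 360 min and below it at 0 and 30 min. ATP5MC2 was higher per kb at 10 min than at 0 min but lower in CPM, at 60.6 CPM against 71.5 CPM at 0 min. Its 1792-base model held 6.83% of its counts at 10 min, against 58.1% at 0 min, and its 878-base model 44.9%, against 14.1%. UQCRH, the hinge protein of complex III, had 219, 187, 197 and 205 CPM per kb, against 1.93, 1.31, 1.21 and 1.55 for UQCRHL. These 2 are 97.9% identical over 516 aligned bases, so the split between them is uncertain.

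**Figure D5:**
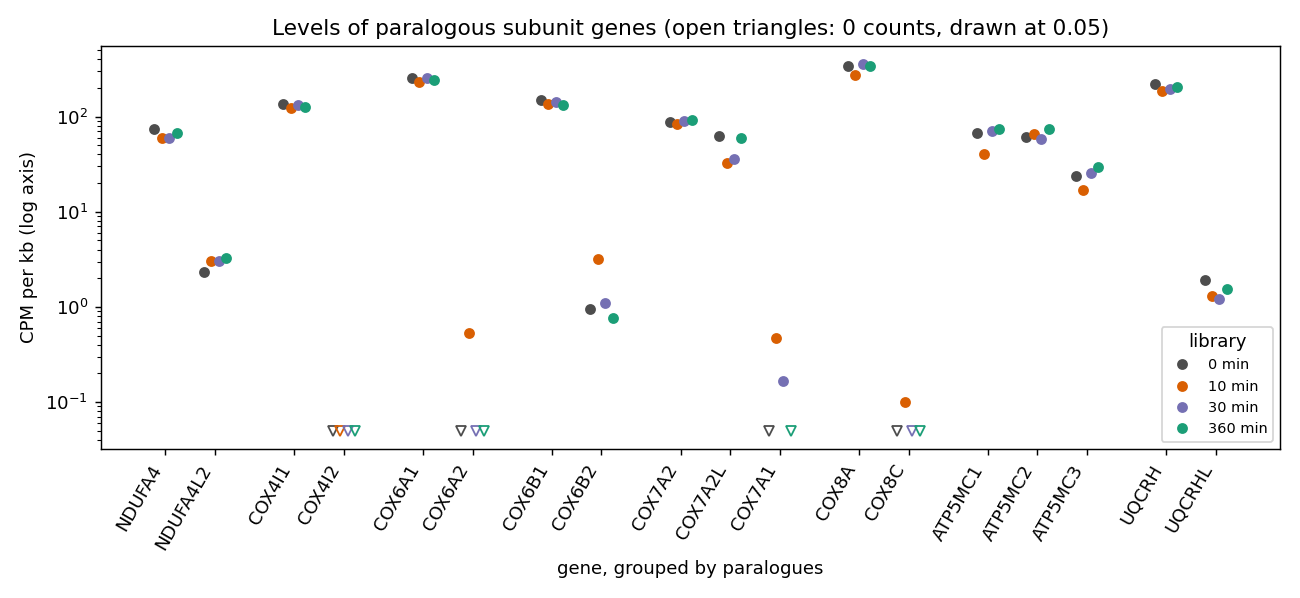
Levels in CPM per kb on a log axis (y axis) of paralogous subunit genes (x axis) in the 4 libraries (colours); open triangles are 0 counts drawn at 0.05. COX4I1, COX6A1, COX7A2 and COX8A lie between 84.5 and 355, while COX4I2 is at 0 in every library.

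Genes around the chain, from lists that do not follow the symbol rule, also stood mostly below 0 min at 10 min, where 53.3% of all genes were below with a median of -0.05, and under the milder rule 26.5% of all genes were higher and 30.4% lower. Of 48 compared assembly factors 35 were below 0 min, with a median log2 ratio of -0.14, and under the milder rule 4 were higher and 13 lower, the last a share near that of all genes. At 30 and 360 min their medians were -0.0001 and 0.02. COA7, for complex IV, had 57.2, 24.5, 42.3 and 59.2 CPM, and TMEM70, for complex V, had 30.0, 12.5, 18.6 and 27.1 CPM, both lowest at 10 min. SDHAF4, for complex II, had 3.22, 8.29, 6.49 and 4.64 CPM. Of 15 genes for electron carriers and coenzyme Q synthesis 13 were below, with a median of -0.27, and under the milder rule 1 was higher and 7 lower. CYCS, cytochrome c, had 361, 191, 364 and 421 CPM, a ratio of 0.529 (0.504 to 0.554) at 10 min, and CYC1, cytochrome c1 of complex III, had 174, 102, 171 and 167 CPM. COQ5, a methyltransferase of coenzyme Q synthesis, had 7.35, 20.1, 29.1 and 23.7 CPM, and its locus with assembled models had ratios of 1.18, 1.48 and 1.26.

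Of 29 genes for mtDNA transcription, replication and RNA maturation, 24 were below 0 min at 10 min, with a median of -0.54, and under the milder rule 3 were higher and 18 lower, against 26.5% and 30.4% of all genes. At 30 and 360 min the medians were -0.06 and 0.05. The 3 higher genes were TFB1M, MTERF2 and POLG2, with ratios of 1.96, 1.37 and 1.31 at 10 min. TFB1M had 6.36, 12.5, 9.44 and 9.16 CPM. TFB2M, a transcription factor of mtDNA, had 29.05, 14.7, 19.2 and 26.7 CPM, lowest at 10 min. MTERF4 had a ratio of 0.258 at 10 min, but its locus with assembled models had 0.942. GRSF1, an RNA-binding protein of mitochondrial RNA granules, had 93.0, 40.9, 84.7 and 78.3 CPM, and its locus with assembled models had a ratio of 0.752 at 10 min in place of 0.440. FASTKD1 had 28.3, 8.24, 27.3 and 15.7 CPM, with a ratio of 0.845 for its locus at 10 min. Of 10 compared regulators of respiratory genes 7 were below, with a median of -0.36, and under the milder rule 2 were higher and 5 lower. The 2 higher ones were HIF1A, a hypoxia-responsive factor, with 562, 866, 597 and 553 CPM, and MYC, a growth-related factor, with 2.34, 5.25, 4.41 and 1.81 CPM. The MYC locus with assembled models had ratios of 2.36, 2.98 and 1.32 at 10, 30 and 360 min. PPRC1 and PPARGC1B, coactivators of the PGC-1 family, had ratios of 0.603 (0.547 to 0.664) and 0.582 (0.483 to 0.700) at 10 min. ESRRA, a nuclear receptor that acts with them, had 99.3, 80.9, 50.7 and 49.9 CPM, low at 30 and 360 min. YY1 had 123, 110, 50.1 and 133 CPM, low at 30 min alone, and its locus could not be matched.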

How the data were processed

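The data are 4 poly(A) RNA libraries, 1 per time. Estimated counts, unscaled, were deposited by the authors for genes and for transcripts. The submitters' processing notes name HISAT2, DESeq2 and GRCh38 without versions. Counting tool, annotation and use of strand were not given in the sources used here. Assembled models held 10.7% to 11.7% of counts.

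Annotated transcripts were matched to GENCODE 29 and summed per gene, and CPM used the total over all transcripts. Intervals are exact (Clopper-Pearson) on counts divided by 4, taken as the cautious worth of a read pair. Of 17776 low values from 1 to 24 at loci without assembled models, 28.3% were multiples of 4, where even spacing gives 25%, so that worth is not settled. A count of 0 allows 3 read pairs. A locus was matched to a member where its 4 counts, less its assembled models, equalled those of the member or of a run of up to 6 neighbours. This gave 69 own, 9 dominant (at least 95% of counts), 16 shared and 10 unmatched members. Exons of 32 nuclear members overlap another gene by at least 10%, 15 of them on the opposite strand.

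Members, lists and comparisons were chosen with earlier results of these data known. The text was set to name all mtDNA genes, members past 2-fold, and the 2 highest and 2 lowest per complex and comparison. It was also set to name the 3 most abundant per complex, paralogue sets and up to 4 genes per other list. NDUFC2, an abundant member of complex I, is given by its shared locus alone. Other genes named were chosen after their values were seen. The sums include all members, also those with no value of their own in the text, 1 of which is not reported here. Motif letters were chosen after the shares of other forms had been seen. For NRF1, a 7-letter form stood in 17.4% of member windows and 4.63% of coding windows, and a fixed 10-letter form in 4.65% and 1.50%. For YY1, an 8-letter form stood in 15.1% and 3.53%, and an 11-letter form in 4.65% and 1.18%. Alternatives changed the scaling, the baseline, the minimum level, the interval, the models counted and the members kept. Scaling alternatives used edgeR 4.0.16 and DESeq2 1.42.0 in R 4.3.3; other steps used Python 3.11.15, SciPy 1.17.1, pandas 2.3.3 and Biopython 1.88. The size rule was tried on simulated data that held counting error alone. It could not cover other differences between libraries or counts that move between models. There, the limit set on calls among unchanged genes was raised from 1% to 2% after the milder rule had gone past it.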

Additional observations from a re-analysis of the deposited data

Results flagged for a closer look

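Models made by the assembly, which the comparisons of annotated transcripts do not count, were at least 2-fold above 0 min, and at 5 CPM or more, at 5 of 78 loci that matched 1 member. At NDUFS6 they had 55.04 CPM at 360 min, against 0.0176 CPM at 0 min. At COX5A they had 25.8 CPM at 360 min, against 0 at 0 min. At NDUFV1 they had 19.3 CPM at 30 min, against 8.21 CPM at 0 min. At NDUFS8 they had 9.55 CPM at 10 min and 9.32 CPM at 30 min, against 4.40 CPM at 0 min. At NDUFS5 they had 5.16 CPM at 10 min, against 0 at 0 min. Of 16 loci shared with other genes, whose assembled models can belong to a neighbour, 2 also passed. COX8A had 29.7 CPM of assembled models at 30 min and 30.7 CPM at 360 min, against 8.70 CPM at 0 min, and NDUFV2 had 26.2 CPM at 30 min, against 8.33 CPM at 0 min. The cause was not tested.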

How the results depend on the processing

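No paired analysis was possible because each time has 1 library. At 10 min the ratio of summed nuclear CPM was 0.844 with TMM factors, 0.849 with median-of-ratios factors and 0.877 without read-through and overlapping genes. The mtDNA ratio at 10 min was 0.954, 0.961 and 0.990 with TMM factors, median-of-ratios factors and the total of annotated transcripts, and 0.977 with nuclear copies added, and at 30 min 0.970 with TMM factors. The nuclear ratio at 30 min was 0.991 for members with the same leading transcript, which turned its direction, 1.02 without overlapping genes and 1.05 against the median of the other 3 libraries. Against that median the mtDNA ratio at 360 min was 1.02, 1 member was 2-fold lower and 4 were lower under the milder rule at 30 min, and 4 were higher under it at 360 min. With whole loci where a locus matched 1 member, 1 member was 2-fold higher and 1 was higher under the milder rule at 10 min. Both calls were NDUFA7, which kept its annotated counts because its locus is shared. At 360 min, 0 were 2-fold lower and 0 were higher under the milder rule. With no minimum level, 1 was 2-fold lower at 10 min. With a minimum of 1 CPM or none, 1 was 2-fold higher, 2 were 2-fold lower and 2 were higher under the milder rule at 360 min. The other 127 recomputed sums and counts moved by less than the counting interval or, for counts, by at most 1.5 times. The cause of these changes was not tested. The counts with whole loci, and the sums without NDUFS6 or with nuclear copies, were chosen after seeing the data. With 1 library per time, no difference has a replicate check, and the 10 min library, which stands apart over all genes, is the only one at that time.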
